A study of Mus musculus with 2 samples.

Results

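Monocytes leave the blood and enter tissue along gradients of small secreted proteins, the CC chemokines, which are named for a pair of adjacent cysteines and act on G protein-coupled CC receptors. The receptor CCR2 marks classical monocytes and is needed for their exit from bone marrow. Macrophages live in healthy heart valves, and cells derived from monocytes join them in diseased ones. The 9 genes described here are the ligand genes Ccl2, Ccl6, Ccl7, Ccl8, Ccl9, Ccl11 and Ccl12 and the receptor genes Ccr1 and Ccr2. They were taken by symbol from a table of 33640 genes, and all 9 were found in it.

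The values come from RNA sequencing of mitral valves of mice aged 5 months. The wild-type (WT) mice were compared with Fbn1C1039G/+ mice, which carry 1 copy of a missense allele of the fibrillin-1 gene and are used as a model of Marfan syndrome. Valves from 8 hearts, of males and females mixed, were pooled into 1 RNA sample for each genotype, and the share of each sex in a pool is not given in the sources used here. Each genotype is therefore 1 library with no replicate, so no value has an error, no test was made, and each difference is between these 2 libraries only. The unit is TPM, an abundance normalised to library size and to transcript length, so that levels of different genes can be set side by side. The sequencing depth behind a TPM value is unknown. Differences are log2(TPM + 1) in the mutant minus the WT pool, and at least 2-fold means a difference of at least 1 on that scale. In valve tissue as a whole, fewer cells of a type and less RNA per cell cannot be told apart.

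Each column of the table summed to nearly the same total (999964 TPM in the WT pool and 999945 TPM in the mutant pool). Fbn1 itself was at 108 TPM in the WT pool and 126 TPM in the mutant pool, and a missense allele need not alter that level. The median gene of those averaging 1 TPM or more lay 0.14 higher in the mutant pool. Both pools carried the tissue's defining transcripts, since the 9 genes of valve interstitial cells and fibroblasts summed to 18229 and 17503 TPM. The 4 globin genes, which mark red blood cells, summed to 6774 TPM in the WT pool and 664 TPM in the mutant pool. Alas2, the remaining gene of the red blood cell list, was at 27.6 and 23.3 TPM.

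All 9 genes had more TPM in the mutant pool, by a TPM ratio between 1.54 for Ccl7 and 3.499 for Ccr1. On the log2 scale 7 of the 9 were at least 2-fold higher, and none was lower. Ccl7 and Ccl11 fell short of the line. The same line was passed by 4.81% of the 17004 genes that averaged 1 TPM or more, and 64.9% of those genes were higher in the mutant pool by any amount. Single low genes differ more between libraries, so the share also depends on abundance. Of the 9 genes, 7 had a mean TPM from 20 to 100, and 6 of these 7 were at least 2-fold higher, against 1.55% of the 5737 genes in that range. Over all 9 genes the median difference was 1.27. Ccl11 did not reach a mean TPM of 1, and the other 8 had a median of 1.36. Under quantile normalization, which gives both pools the same distribution of values, the table held 540 genes at least 2-fold higher and 462 lower in place of 818 and 293. Ccl12 then lay at 0.91, and 6 of the 9 genes were at least 2-fold higher.

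**Figure D1:**
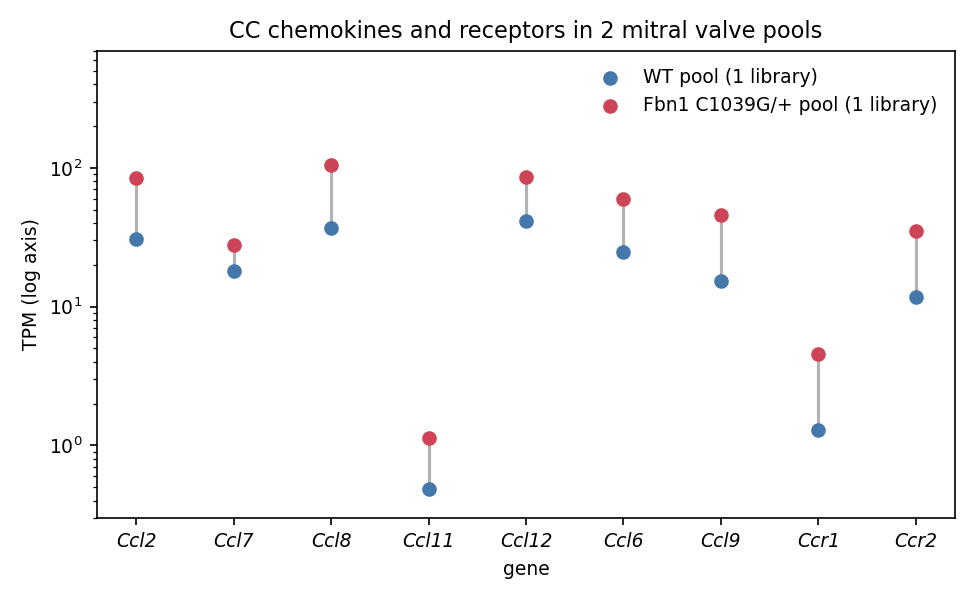
TPM of the 9 genes on a log axis in the WT pool (blue) and the Fbn1C1039G/+ pool (red), 1 library each, with no error bars because there are no replicates. In every gene the red point lies above the blue point, with the shortest line at Ccl7 (18.1 and 27.8 TPM).

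**Figure D2:**
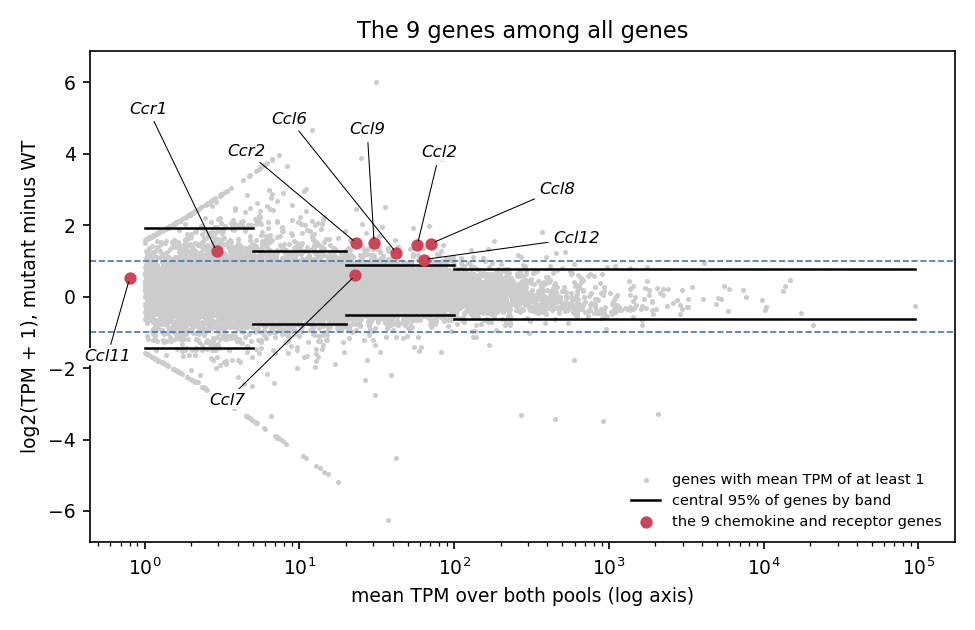
Difference in log2(TPM + 1), mutant minus WT, against mean TPM on a log axis. Grey points are the 17004 genes averaging 1 TPM or more, black lines bound the central 95% of genes in 4 ranges of mean TPM, dashed lines mark 2-fold and red points are the 9 genes. From 20 to 100 TPM the upper black line lies at 0.89, and 6 of the 7 red points there lie above it.

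The promoters of 6 of the 9 genes (Ccl6, Ccl8, Ccl9, Ccl12, Ccr1 and Ccr2) were matched by symbol in the RefSeq sequence table for GRCm38.p6. Ccl2, Ccl7 and Ccl11 were not matched. The 4 ligand promoters are shown as neighbouring pairs from the 2 ligand clusters described below, because both genes of each pair had more TPM in the mutant pool. Each runs 5′ to 3′ on the strand of the gene, with 250 bases before the start and 50 from it. Capitals mark matches, on either strand, to the letters searched. These were GGG and CC separated by any 5 bases for NF-kB, TGANTCA for AP-1, a repeat of GAAA after any 2 bases for the interferon-stimulated response element, TTGCNNAA for C/EBP, GAGGAA for PU.1 and TATAAA for the TATA box. Positions are of the first base of a match, with the start at 0.
Ccl12, chr11:82101595-82101894, plus strand: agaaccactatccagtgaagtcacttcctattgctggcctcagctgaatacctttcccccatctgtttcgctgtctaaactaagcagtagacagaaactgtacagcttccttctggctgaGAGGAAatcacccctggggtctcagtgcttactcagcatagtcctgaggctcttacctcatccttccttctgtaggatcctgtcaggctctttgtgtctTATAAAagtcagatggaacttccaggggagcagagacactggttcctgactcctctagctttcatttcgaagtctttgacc
Ccl8, chr11:82114935-82115234, plus strand: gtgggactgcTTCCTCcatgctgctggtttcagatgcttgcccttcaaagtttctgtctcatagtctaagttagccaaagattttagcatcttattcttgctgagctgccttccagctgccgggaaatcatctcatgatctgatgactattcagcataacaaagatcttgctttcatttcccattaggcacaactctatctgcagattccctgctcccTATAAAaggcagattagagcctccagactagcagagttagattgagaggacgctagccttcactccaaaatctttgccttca
Ccl9, chr11:83578587-83578886, minus strand: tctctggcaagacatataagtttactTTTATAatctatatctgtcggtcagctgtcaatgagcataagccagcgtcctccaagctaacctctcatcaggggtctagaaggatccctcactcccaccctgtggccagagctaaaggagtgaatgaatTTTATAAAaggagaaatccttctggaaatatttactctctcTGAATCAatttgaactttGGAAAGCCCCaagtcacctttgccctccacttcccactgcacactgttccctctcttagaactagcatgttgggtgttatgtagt
Ccl6, chr11:83593038-83593337, minus strand: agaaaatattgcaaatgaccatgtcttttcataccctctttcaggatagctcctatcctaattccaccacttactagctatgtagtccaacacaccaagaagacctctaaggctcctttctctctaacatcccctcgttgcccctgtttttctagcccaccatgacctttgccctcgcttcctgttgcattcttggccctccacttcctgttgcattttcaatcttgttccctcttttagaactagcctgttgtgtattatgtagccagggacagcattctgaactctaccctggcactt

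Ccl12 and Ccl8 each held a TATA box match close to the usual distance from the start, at -31 and -32. Each also had a PU.1 match, at -130 in Ccl12 and at -240 on the opposite strand in Ccl8. Ccl9 held TATA box matches at -224, -94 and -92, the last pair overlapping on opposite strands, an AP-1 match at -53 and an NF-kB match on the opposite strand at -35. No searched motif was found in the windows of Ccl6 and Ccr2, and Ccr1 held an NF-kB match at -74 and a PU.1 match at -129. The Ccr2 window (124101933 to 124102232) lies almost wholly inside the GENCODE span of the gene, which starts at 124101950. The TATA box letters were thus in 3 of the 6 windows, against 13.6% of all 32851 promoters. PU.1 letters were in 3 of 6, against 28.3%. The NF-kB letters were in 2 of 6, against 50.8%, and AP-1 letters in 1 of 6, against 7.81%. The response element and C/EBP letters were in none of the 6, and in 3.44% and 10.8% of all promoters. By global alignment Ccl8 and Ccl12 were identical at 58.0% of aligned columns, the highest of the 15 pairs among the 6 windows. Ccl6 and Ccl9 were at 50.3%, near a ligand and a receptor, Ccl12 and Ccr2, at 50.7%. The lowest pair was Ccl9 and Ccr2 at 47.5%. The percentages are for whole windows and do not show shorter like stretches at unlike distances from the start. A match to letters is a description of the sequence and not of binding.

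The most abundant of the set in both pools were 3 ligand genes of the monocyte chemoattractant protein (MCP) group, Ccl12, Ccl8 and Ccl2. Ccl2 encodes MCP-1, the main agonist of CCR2 (chromosome 11, 82035571 to 82037453 in mm10, ENSMUSG00000035385.5). Its transcripts were at 30.6 TPM in WT valves and 85.1 TPM in mutant valves, a TPM ratio of 2.78 and a difference of 1.45. Ccl12 encodes MCP-5, a mouse CCR2 ligand (82101845 to 82103400, ENSMUSG00000035352.3). Its level was 41.6 TPM in the WT pool and 86.4 TPM in the mutant pool, a ratio of 2.08 and a difference of 1.04. Ccl12 thus lies at the 2-fold line, and it fell below the line at 0.93 when the differences were centred on the median gene. Ccl7, which encodes MCP-3, a ligand of CCR2 that also acts on CCR1 and CCR3 (82045712 to 82047525, ENSMUSG00000035373.2), differed least of the genes above 1 TPM. It was at 18.1 TPM in the WT pool and 27.8 TPM in the mutant pool, a ratio of 1.54 and a difference of 0.59. That value lies within the central 95% of genes from 20 to 100 TPM, which ran from -0.53 to 0.89. The ratio of Ccl2 to Ccl7, which does not depend on the total of a pool, was 1.69 in the WT pool and 3.06 in the mutant pool. Summed, the 3 CCR2 ligand genes Ccl2, Ccl7 and Ccl12 were at 90.3 TPM and 199 TPM.

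Ccl8 and Ccl11 belong to the same gene cluster but their mouse proteins are known for other receptors. Ccl8 encodes MCP-2, which in the mouse acts on CCR8 (82115185 to 82116799, ENSMUSG00000009185.2). Ccl8 was at 36.9 TPM in the WT pool and 105 TPM in the mutant pool, where it was the most abundant of the 9 genes, with a ratio of 2.85 and a difference of 1.49. The receptor gene Ccr8 was listed at 0 in the WT pool and at 0.301 TPM in the mutant pool. Ccl11 encodes eotaxin, which attracts eosinophils through CCR3 (82057823 to 82062955, ENSMUSG00000020676.2). It was near the bottom of the measured range, at 0.481 TPM and 1.12 TPM, a difference of 0.52. Its receptor gene Ccr3 was at 0.0502 and 0.119 TPM. With a pseudocount of 0.1 in place of 1, Ccl11 lay at 1.07.

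Ccl6 and Ccl9 encode mouse chemokines that act on CCR1 and are made by myeloid cells. Ccl9 (chromosome 11, 83572919 to 83578636, ENSMUSG00000019122.8) was at 15.4 TPM in WT and 45.5 TPM in mutant valves. Its ratio of 2.96 and difference of 1.51 were the largest among the 7 ligands. Ccl6 (83587882 to 83593087, ENSMUSG00000018927.3) was at 24.9 and 59.7 TPM, a ratio of 2.40 and a difference of 1.23. Together both genes were at 40.3 TPM in the WT pool and 105 TPM in the mutant pool.

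Both receptor genes were at least 2-fold higher in the mutant pool. Ccr2 (chromosome 9, 124101950 to 124113557, ENSMUSG00000049103.14) was at 11.8 TPM in the WT pool and 35.04 TPM in the mutant pool, a ratio of 2.98 and a difference of 1.496. Ccr1, a receptor of monocytes and neutrophils (123962124 to 123968692, ENSMUSG00000025804.5), was low, at 1.30 TPM and 4.54 TPM. Its ratio of 3.499 was the highest of the 9, but genes from 1 to 5 TPM vary widely. The central 95% of them ran from -1.44 to 1.93, which holds the difference of 1.27 for Ccr1, and 10.4% of them were at least 2-fold higher. With a pseudocount of 5 the difference of Ccr1 was 0.60.

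The order of levels was similar in both pools. In the WT pool it ran from Ccl12 through Ccl8, Ccl2, Ccl6, Ccl7, Ccl9, Ccr2 and Ccr1 to Ccl11. In the mutant pool Ccl8 was first, ahead of Ccl12, Ccl2, Ccl6, Ccl9, Ccr2, Ccl7, Ccr1 and Ccl11, so that Ccl7 stood at place 5 of 9 in the WT pool and at place 7 in the mutant pool. With 1 library a pool there is no spread against which neighbours such as Ccl12 and Ccl2 in the mutant pool could be judged. The 7 ligands summed to 168 TPM in the WT pool and 411 TPM in the mutant pool. Of the 243 TPM between these sums, Ccl8 made up 28.1%, Ccl2 22.5%, Ccl12 18.5% and Ccl7 4.002%. Within the ligand sum, the share of Ccl7 was lower in the mutant pool and those of Ccl8, Ccl2 and Ccl9 were higher. Ccl8 took 22.0% of the ligand sum in the WT pool and 25.6% in the mutant pool, and Ccl2 took 18.2% and 20.7%. Ccl12 went from 24.8% to 21.0%, Ccl7 from 10.8% to 6.78%, and Ccl9 from 9.15% to 11.1%. The share of Ccl6 was 14.8% and 14.5%.

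**Figure D3:**
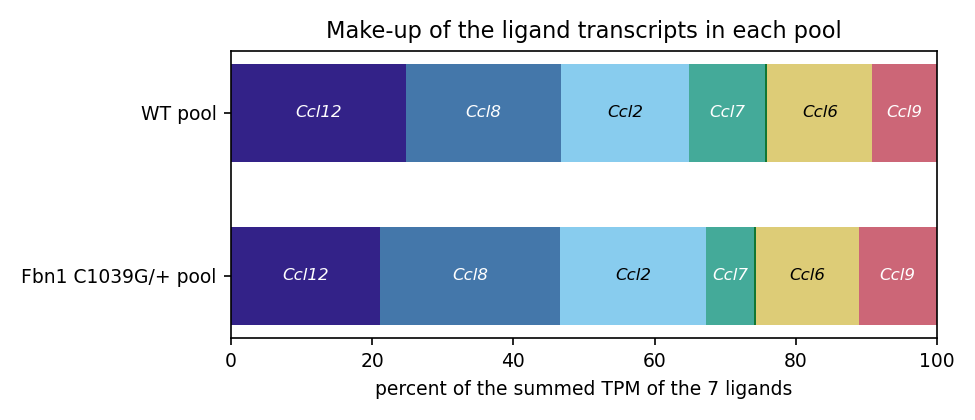
Percent of the summed TPM of the 7 ligands taken by each ligand, as stacked bars for the WT pool and the Fbn1C1039G/+ pool, 1 library each. The thin green band is Ccl11 (0.287% and 0.273%), and the Ccl7 segment is narrower in the mutant pool (10.8% and 6.78%).

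The ligand genes lie in 2 clusters on chromosome 11, and neighbouring genes did not all have like differences. In the first cluster the order along the chromosome is Ccl2, Ccl7, Ccl11, Ccl12, Ccl8 and Ccl1, the last of which was at 0.332 TPM in the WT pool and listed at 0 in the mutant pool. Ccl7, with a difference of 0.59, thus lies next to Ccl2, with 1.45. In the second cluster Ccl9 and Ccl6 lie between Ccl5 and Ccl3. Ccl5, a chemokine gene that T cells among others express, was at 15.6 TPM in the WT pool and 15.1 TPM in the mutant pool. The macrophage inflammatory protein genes Ccl3 (4.55 and 5.04 TPM) and Ccl4 (2.31 and 1.67 TPM) were low in both. Of the receptor genes on chromosome 9, Ccr1 lies next to Ccr1l1, which was at 0.0868 and 0.304 TPM. Similar coding sequences can share reads. The share of distinct 31-base words of a gene's GENCODE M21 transcripts that also occur in another gene's was 0 for Ccl2, Ccl7, Ccl8 and Ccl12. It was 3.98% for Ccl9 and 3.48% for Ccr2. Ccl2 overlaps the gene Gm17268 on the opposite strand, which was listed at 0 in the WT pool and at 5.16 TPM in the mutant pool. The 31-base words were compared on both strands, so the 0 for Ccl2 also covers the GENCODE M21 transcripts of Gm17268. The spans of both genes overlap, but their transcripts share no such word. Whether strand was used is not given in the sources used here.

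**Figure D4:**
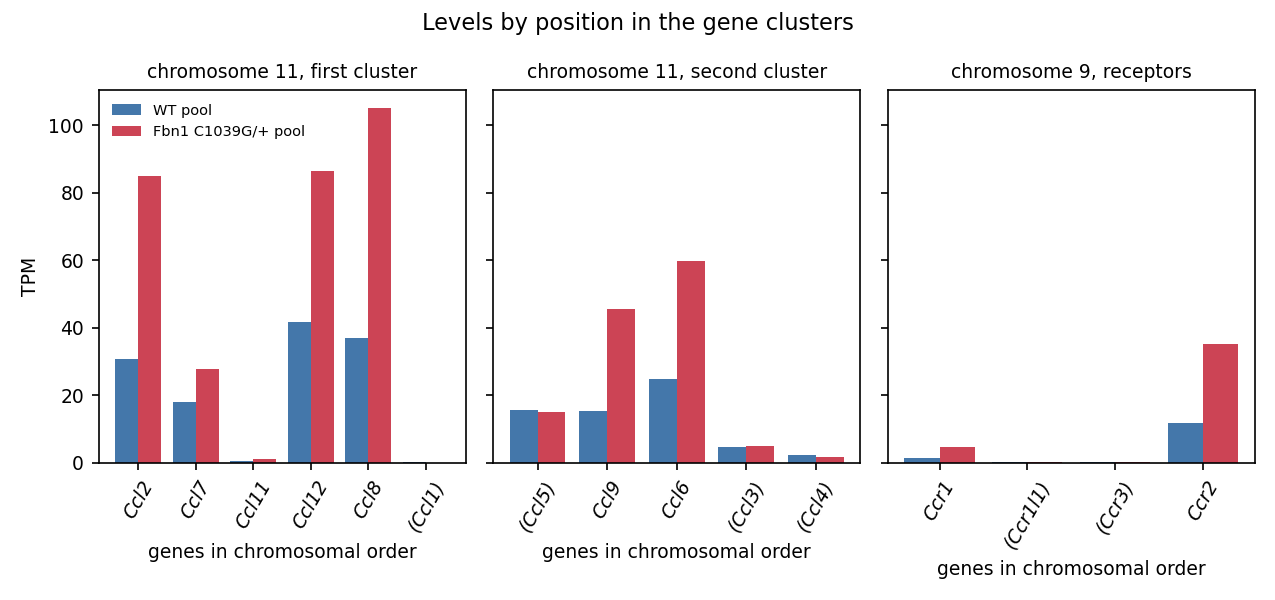
TPM in the WT pool (blue bars) and the Fbn1C1039G/+ pool (red bars), 1 library each, with genes in chromosomal order in 2 chemokine clusters of chromosome 11 and for 4 receptor genes of chromosome 9. Genes in parentheses are neighbours outside the set, of which Ccl5 had bars of nearly equal height (15.6 and 15.1 TPM) beside Ccl9 (15.4 and 45.5 TPM).

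The other CC chemokine ligand genes pointed both ways. Of 14, 12 averaged 1 TPM or more, with 2 at least 2-fold higher, 2 lower and a median difference of -0.10. Over all genes the shares were 4.81% higher and 1.72% lower. The higher 2 encode ligands of CCR4, a receptor of T cells, and were Ccl17 at 35.5 and 81.4 TPM and Ccl22 at 1.48 and 6.59 TPM. The lower 2 were Ccl21a, a CCR7 ligand of lymphatic vessels with near-identical copies in the genome, at 244 and 94.3 TPM, and Ccl26 at 2.29 TPM and listed at 0. Ccl26 averaged 1 TPM only through the WT pool, which fixed its direction. Among these ligands averaging 5 TPM or more, 1 was at least 2-fold higher and 1 was lower. The other CCR7 ligand gene, Ccl19, was at 116 and 104 TPM. The CCR9 ligand gene Ccl25 was at 19.8 and 31.5 TPM, and the CCR10 ligand genes Ccl27a and Ccl28 were at 46.4 and 39.0 TPM and at 1.07 and 2.38 TPM. Ccl24, an eotaxin gene, was at 7.02 and 4.77 TPM, and Ccl20 was listed at 0 in both pools. Summed, these 14 ligands were at 496 TPM in the WT pool and 386 TPM in the mutant pool. Ccl21a alone differed by more than these sums did, so without it the list was not lower in the mutant pool. The 7 ligands above were at 168 and 411 TPM.

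Among 10 other CC receptor genes, 3 averaged 1 TPM or more and none was at least 2-fold different. Among them were Ccr9 at 7.73 and 4.86 TPM and Ccrl2, a chemerin-binding receptor, at 14.3 and 10.2 TPM. Ccr4 (0.716 and 0.832 TPM), Ccr6 (0.164 and 0.383 TPM), Ccr7 (0.580 and 1.052 TPM) and Ccr10 (0.315 and 0.495 TPM) were near the bottom of the range. Atypical receptors bind chemokines without G protein signalling, and 0 of 4 passed the line. Ackr2, a scavenger of inflammatory CC chemokines including CCL2, was at 6.22 and 12.8 TPM, a difference of 0.94. Ackr4 was at 43.96 and 59.5 TPM and Ackr3 at 70.8 and 65.3 TPM.

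Gene lists upstream and downstream of the chemokines had medians between 0.12 and 0.48, against 0.14 for all genes. Of all genes averaging 1 TPM or more, 4.81% were at least 2-fold higher. Of 20 inducers and NF-kB regulators, 19 averaged 1 TPM or more, with 2 at least 2-fold higher, none lower and a median of 0.28. The 2 were the cytokine genes Il1b (9.42 and 41.2 TPM) and Il6 (listed at 0, and 4.95 TPM). Il6 passed the filter on low values only through the mutant pool, so its place on the higher side was fixed by that filter, and Il1b was the 1 left among genes averaging 5 TPM or more. Nfkbiz, a nuclear NF-kB regulator, was at 23.6 and 39.5 TPM and the shared cytokine receptor gene Il6st at 204 and 186 TPM. Of 13 genes of receptor signalling and migration none passed the line (median 0.18), among them the phospholipase gene Plcb2 (3.55 and 7.57 TPM) and the receptor kinase gene Grk2 (24.2 and 14.1 TPM). Of 11 genes of monocyte adhesion, 2 were at least 2-fold higher (median 0.48). Among them was the endothelial selectin gene Sele (4.60 and 11.7 TPM). The adhesion count was 0 with a pseudocount of 5 and under quantile normalization. Of 5 chemokine-cleaving protease genes 4 averaged 1 TPM or more, and Dpp4 (1.65 and 5.46 TPM) was the 1 at least 2-fold higher.

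Marker genes of leukocytes differed by cell type and by gene. The 12 monocyte markers summed to 285 TPM in the WT pool and 402 TPM in the mutant pool. Ace, which the endothelium also expresses, was at 142 and 227 TPM, and without it the list summed to 142 and 175 TPM. Ly6c2, which marks classical monocytes, was at 3.91 and 6.46 TPM, F13a1 at 54.3 and 58.7 TPM, Cx3cr1 at 17.7 and 17.5 TPM and Nr4a1 at 34.95 and 20.8 TPM. Of the 12, 5 were at least 2-fold higher, against 4.81% of all genes, and none was lower. Of these 5, Plac8 (listed at 0, and 5.29 TPM), Chil3 (0.121 and 3.56 TPM) and Treml4 (0.562 and 3.01 TPM) averaged 1 TPM only through the mutant pool, which fixed their direction. Fcgr4 was at 1.97 and 5.28 TPM. The count was 1 with a pseudocount of 5, and 1 among markers averaging 5 TPM or more. The list shares 2 genes with the adhesion list, and F13a1 is also in that of resident-type macrophages. The 12 pan-macrophage genes differed less, with none past the line, a median of 0.19 and sums of 2360 and 2784 TPM. Of the 12, 11 were higher in the mutant pool by any amount, against 64.9% of all genes averaging 1 TPM or more. The largest difference was that of Fcgr1 (3.98 and 7.72 TPM). Csf1r, the receptor on which macrophages depend, was at 83.3 and 83.8 TPM. The ratio of Ccr2 to Csf1r was 0.141 in the WT pool and 0.418 in the mutant pool, and that of Ccr2 to the macrophage gene Cd68 was 0.0839 and 0.217. When differences were taken relative to the pan-macrophage median, 6 of the 9 genes were at least 2-fold higher, with Ccl12 at 0.85 and Ccr2 at 1.31. The 8 genes of resident-type macrophages, none past the line, summed to 638 and 651 TPM.

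Neutrophil markers summed to 19.1 TPM in the WT pool and 105 TPM in the mutant pool. Of 11, 7 averaged 1 TPM or more, and 4 of these were at least 2-fold higher, against 4.81% of all genes. S100a9 (2.34 and 47.96 TPM) and S100a8 (0.369 and 16.2 TPM), which encode calcium-binding proteins of neutrophils and monocytes, made up most of the gap between the sums. S100a8 averaged 1 TPM only through the mutant pool, and without both genes the list summed to 16.4 and 40.4 TPM. The others past the line were Csf3r (5.63 and 18.8 TPM) and Cxcr2 (6.43 and 18.0 TPM), both above 1 TPM in each pool. The granule genes Camp (1.49 and 0.949 TPM) and Retnlg (1.21 and 1.13 TPM) were low and not higher in the mutant pool. The median difference was 1.36 over the 7 markers averaging 1 TPM or more and 0.13 over all 11. Their defining genes Ly6g and Elane were listed at 0 in both pools, Ngp in the WT pool and Ltf in the mutant pool. Dendritic cell genes summed to 42.3 and 69.2 TPM (2 of 6 higher) and mast cell genes to 55.5 and 85.7 TPM (1 of 6 higher). Eosinophil genes summed to 8.52 and 18.2 TPM. Of 8, 2 averaged 1 TPM or more, and 1 of these was at least 2-fold higher. The dendritic cell and eosinophil counts were both 0 with a pseudocount of 5 and under quantile normalization. Ear1 and Ear6 were listed at 0 in both pools, Prg2 in the WT pool and Epx in the mutant pool. T and natural killer cell genes summed to less in the mutant pool, at 78.6 and 49.4 TPM. Of 9, 7 averaged 1 TPM or more, and 4 of these were at least 2-fold lower, against 1.72% of all genes. Cd3e was at 19.2 and 6.35 TPM. The most abundant gene of the list, Cd3d, was the 1 of the 7 that was higher in the mutant pool (19.7 and 26.9 TPM). The count of lower genes was 1 with a pseudocount of 5, and 2 among genes averaging 5 TPM or more. Ncr1 was listed at 0 in both pools. B cell genes were at 3.56 and 3.803 TPM, endothelial genes at 551 and 569 TPM and cardiac muscle genes at 2315 and 1725 TPM. The part of these cell markers in the chemokine and receptor differences was not tested.

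**Figure D5:**
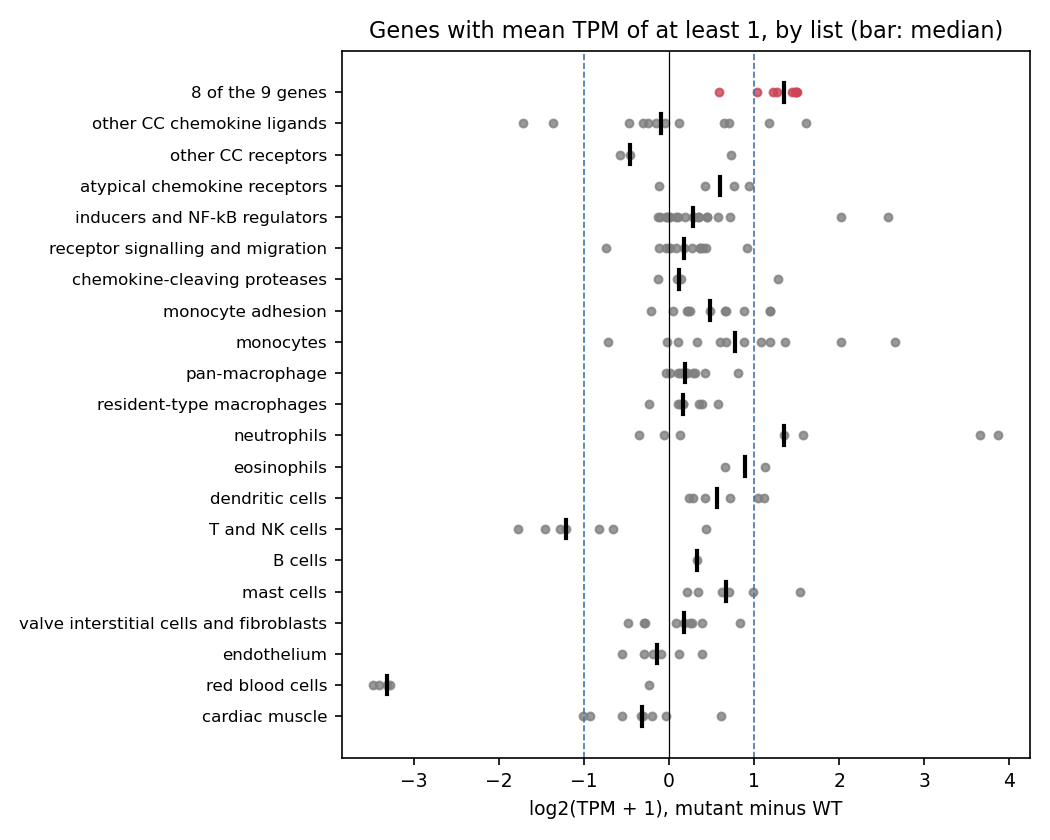
Difference in log2(TPM + 1), mutant minus WT, of each gene averaging 1 TPM or more, by gene list, 1 library per genotype. Black bars are medians and dashed lines mark 2-fold. The red points are 8 of the 9 genes (median 1.36), all of which lie to the right of the medians of the other CC chemokine ligands (-0.10) and the pan-macrophage genes (0.19). The medians of 3 other lists and of the neutrophil (1.36) and monocyte (0.78) lists lie within the span of the red points. The 3 are the eosinophil (0.89), mast cell (0.67) and atypical chemokine receptor (0.60) lists.

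Genes with the most similar pair of levels were sought in genes averaging 10 TPM or more, by Euclidean distance of log2(TPM + 1) over the 2 libraries. With only 2 libraries this finds genes of like level in both pools. Nearest to Ccl2 were Adamtsl3 (32.4 and 75.7 TPM), Trim30a (34.6 and 90.9 TPM), Myh14 (33.5 and 75.5 TPM), Ccl17 and Mndal (38.6 and 79.0 TPM), at distances from 0.18 to 0.34. Among the 5 nearest to Ccr2 were Nrg1 (11.7 and 33.9 TPM), BC037034 (11.2 and 33.3 TPM), CR550303.1 (13.6 and 37.6 TPM) and Fmnl1 (10.2 and 32.4 TPM), at distances from 0.05 to 0.22.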

How the data were processed

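RNA from 1 pool of 8 hearts per genotype was amplified with the Ovation RNAseq system v2 and made into Nextera XT libraries, per the labels' protocols. The authors deposited 1 TPM value per gene symbol and library, per the file header. Trimmomatic, HISAT2, kallisto and mm10 are named in the submitters' processing notes. Their versions and roles, the gene models and any use of strand are likewise not given in the sources used. Amplified reads are not independent molecules, and TPM keeps no depth, so no interval was computed.

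From these values the difference in log2(TPM + 1) was computed in Python 3.11.15, with a pseudocount of 1, which understates differences of low genes. Calls were a difference of at least 1 in genes averaging 1 TPM or more. Members and lists were chosen with earlier results of these data known, so their counts describe and do not test. Named genes were the 9 members, the other CC ligands and receptors, and from each list the most abundant gene and the 2 with the largest difference above a mean TPM of 5, of which those that bear on the results are printed. A few genes taken by it are not reported here. Ccr1l1, Csf1r, Cd68, Gm17268, Il6, Dpp4, Plac8, Chil3, Fcgr4, Treml4, Ly6c2, Nr4a1, Cx3cr1, F13a1, Csf3r, Cxcr2, Camp, Retnlg, Alas2, Fbn1 and the genes listed at 0 were named after their values were seen. Gene positions are from GENCODE M21 and promoters from RefSeq, both on GRCm38 (mm10). Protein identity was planned but not analysed here. Alternatives were other pseudocounts, filters, scalings and a 1.5-fold line. Marker sums without Ace, and without S100a8 and S100a9, were added after seeing the data.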

Additional observations from a re-analysis of the deposited data

How the results depend on the processing

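The 9 genes were higher in the mutant pool under each pseudocount and scaling tried, and 47 of 54 recomputed differences stayed on their side of the 2-fold line. The count of members at least 2-fold higher ran from 5 to 7, with 8 past a 1.5-fold line, and their median from 1.17 to 1.49. Ccl12 fell below the line with a pseudocount of 5 (0.97), centring on the median (0.93), quantile normalization (0.91), abundant or predicted classes (mitochondrial, ribosomal protein, globin, Gm and Rik genes) left out (0.99) and differences relative to the pan-macrophage list (0.85). Ccr1 did so with a pseudocount of 5 (0.60), and Ccl11 passed it with a pseudocount of 0.1 (1.07). Ccl2 ran from 1.26 to 1.47, Ccl8 from 1.29 to 1.51, Ccl9 from 1.31 to 1.56, Ccl6 from 1.04 to 1.26, Ccr2 from 1.26 to 1.57 and Ccl7 from 0.40 to 0.62. The 14 ligand shares moved by less than 1.5 times under quantile normalization.

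The numbers of all genes at least 2-fold higher and lower, 818 and 293, became 1264 and 464 with a pseudocount of 0.1, and 209 and 87 with 5. They were 540 and 462 under quantile normalization, 360 and 103 in genes averaging 5 TPM or more, and 2613 and 805 at 1.5-fold. With these classes left out, 499 were higher. The median of the other CC receptors, -0.46 over 3 genes, became 0.22 with no filter and 0.086 with those classes left out, where other sets of genes passed. Of 417 recomputed list values 379 stayed alike, 26 were smaller or fell below the line, 10 were larger or passed it, and the 2 just given changed sign.

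No paired analysis was possible because each genotype is 1 pooled library, and there is no replicate to leave out. Biological spread, sex balance of the pools and sequencing depth cannot be judged from these values.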
